A study of Mus musculus with 8 samples.

Results

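The mitochondrially encoded genes were taken as every gene of the count table whose symbol begins with mt-, which gave 37 of 41249 listed genes. They are 13 protein-coding genes, 2 ribosomal RNA (rRNA) genes and 22 transfer RNA (tRNA) genes, all on the mitochondrial chromosome (MT) of mouse build GRCm38. The RNA came from B cells of the spleen of mice that were wild-type or carried, on both alleles, the 3'RR, the hs3b-4 or the 3'PAL deletion in the regulatory region downstream of the immunoglobulin heavy chain genes, and the labels name a mixed background, 129/C58BL/6, for every group. Cells were used fresh after a density gradient and removal of CD43-positive cells (resting) or after 48 hours with 5 µg/mL lipopolysaccharide (LPS), a bacterial product that activates B cells, and a further gradient (stimulated). Each of the 8 libraries, 1 per genotype and state, was a pool of B cells from 4 animals, and the sources used here do not say whether the resting and stimulated pools shared animals or how old they were. Stranded libraries were made from total RNA after rRNA depletion.

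Mitochondrial DNA is a small circle that is transcribed from both strands as long precursors. Most genes are read in one direction: the RNA with the sequence of the plus strand of the reference, historically called the heavy-strand transcript, carries both rRNAs, most mRNAs and most tRNAs. The opposite transcript carries mt-Nd6 as its only mRNA, together with a smaller set of tRNAs. The tRNAs sit between the mRNAs and rRNAs and are cut out of the precursor, which frees the neighbouring RNAs. The proteins are subunits of respiratory complexes I, III, IV and V, which also need subunits encoded in the nucleus, and the rRNAs form the core of the mitochondrial ribosome. B cells that are activated grow and divide and raise their respiratory capacity.

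The minus-strand members were mt-Nd6 and 8 tRNAs, and the other 12 protein-coding genes, 2 rRNAs and 14 tRNAs were on the plus strand. Of the 37 members, 33 had a count in some library, and 21 passed the filter on low counts (2 rRNAs, 12 protein-coding genes and 7 tRNAs). The tRNAs mt-Tf, mt-Td, mt-Tk and mt-Ts2 had no count in any library, which allows up to 3 counts, or 0.104 to 0.168 CPM (counts scaled to library size), in a library. Marker sums in CPM use the same scaling, while CPM levels of single genes use the effective library size, that is, library size corrected by TMM scaling. The remaining 11 tRNAs and mt-Atp8 were counted but not tested, with at most 13 counts in a library.

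The tRNAs that passed the comparison of states are shown first, with their place in the genome. Each is printed 5′ to 3′ as the RNA-like strand, written with T, with its anticodon in capitals, from the GENCODE M21 transcripts of GRCm38. The proline tRNA mt-Tp lies on the minus strand at chrMT:15356-15422, next to the control region. The threonine tRNA mt-Tt lies directly beside it on the plus strand at chrMT:15289-15355. The leucine tRNA mt-Tl1 lies on the plus strand at chrMT:2676-2750, directly between mt-Rnr2 and mt-Nd1.
mt-Tp: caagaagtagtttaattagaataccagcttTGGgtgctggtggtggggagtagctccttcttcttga
mt-Tt: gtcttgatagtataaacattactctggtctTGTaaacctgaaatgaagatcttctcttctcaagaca
mt-Tl1: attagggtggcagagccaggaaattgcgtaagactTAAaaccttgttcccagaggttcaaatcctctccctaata

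A second pair of sequences is shown because it holds the base at which the reference sequences of a mitochondrial gene and a nuclear copy differ. The first 30 bases of mt-Nd3 (chrMT:9459-9488, plus strand) and of its copy Gm28438 (chr1:24613090-24613119, minus strand) follow, with position 3 in capitals. Over the 345 bases compared they differed by the single substitution T3C, with positions counted from 1 at the 5′ end of mt-Nd3 and the base of mt-Nd3 given first.
mt-Nd3: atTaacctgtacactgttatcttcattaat
Gm28438: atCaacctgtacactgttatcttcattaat

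Total counts per library ran from 17883683 to 28785192. The 8 B cell markers summed to 3428 to 3672 CPM in resting and 2424 to 2983 CPM in stimulated libraries, and none was at 0 in any library. Markers of other cells were present in the resting libraries: the 7 erythroid markers summed to 3348 to 20420 CPM and the 10 monocyte and macrophage markers to 316 to 1497 CPM, against 10.2 to 243 and 11.9 to 19.4 CPM in stimulated libraries. All 7 erythroid and all 10 monocyte and macrophage markers fell on stimulation in the fit described below, and their part in the results was not tested. The wild-type resting library stood apart in AY036118, an rRNA-like sequence, which took 1.94% of its counts against 0.00755 to 0.0842% elsewhere, and the calls below that rest on it are given with and without it. In the kallisto estimated counts, Lars2, a nuclear gene for a mitochondrial aminoacyl-tRNA synthetase, took 15.4% of that library against 0.0808 to 1.70% elsewhere, which lowers the TPM of every other gene there. In the gene counts Lars2 took 0.000625 to 0.00228% of the other libraries and 0.0068% of that library. The kallisto value is therefore not read as the level of Lars2. The ratios to wild-type within the resting state all rest on that library and have no value without it. In bulk RNA, fewer cells of a type and less RNA per cell cannot be told apart.

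Mitochondrial RNA made up 16.0 to 22.9% of all counts, and nearly all of it was rRNA. The members took 20.7% of counts in the wild-type, 19.2% in the 3'RR deletion, 16.0% in the hs3b-4 deletion and 22.9% in the 3'PAL deletion resting libraries. In stimulated libraries these shares were 20.03%, 20.5%, 19.9% and 20.8% in the same order. The resting libraries spread widely around the stimulated ones, and the groups overlapped. The share was higher after stimulation in 2 genotypes and lower in 2, with a mean difference of 0.624 percentage points (SD 2.61, n = 4 genotypes, exact sign-flip test, 2-sided p = 0.75, adjusted p = 0.75 over 8 values). With 4 genotypes this test cannot give a p below 0.13. The sign of the mean rests on the hs3b-4 pair: without it the mean was -0.476 points. The widest 95% Wilson interval on these shares was ± 0.0188 points, and such intervals cover counting error only.

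By class, the rRNAs took 15.4 to 21.97% of counts in resting and 19.1 to 19.9% in stimulated libraries. The depletion of rRNA before sequencing acts on these genes, so their level is what was left after it. Protein-coding members took 0.615 to 0.966% and 0.799 to 0.877% by their own gene counts, and 1.55 to 2.22% and 1.83 to 2.00% when summed with the chromosome 1 copies described below. The tRNAs took 0.000945 to 0.00149% and 0.00177 to 0.00232%. The tRNA share was thus higher in every stimulated library than in any resting library (mean difference 0.00082 points, SD 0.00015, n = 4 genotypes, higher in 4 of 4, exact sign-flip p = 0.13, adjusted p = 0.25 over 8 values). The rRNA and protein-coding shares overlapped between states (exact sign-flip p = 0.75 and 0.5, adjusted p = 0.75 and 0.667). The protein-coding share was higher after stimulation in 2 genotypes and lower in 2, with a mean difference of 0.0481 points (SD 0.128, n = 4).

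**Figure D1:**
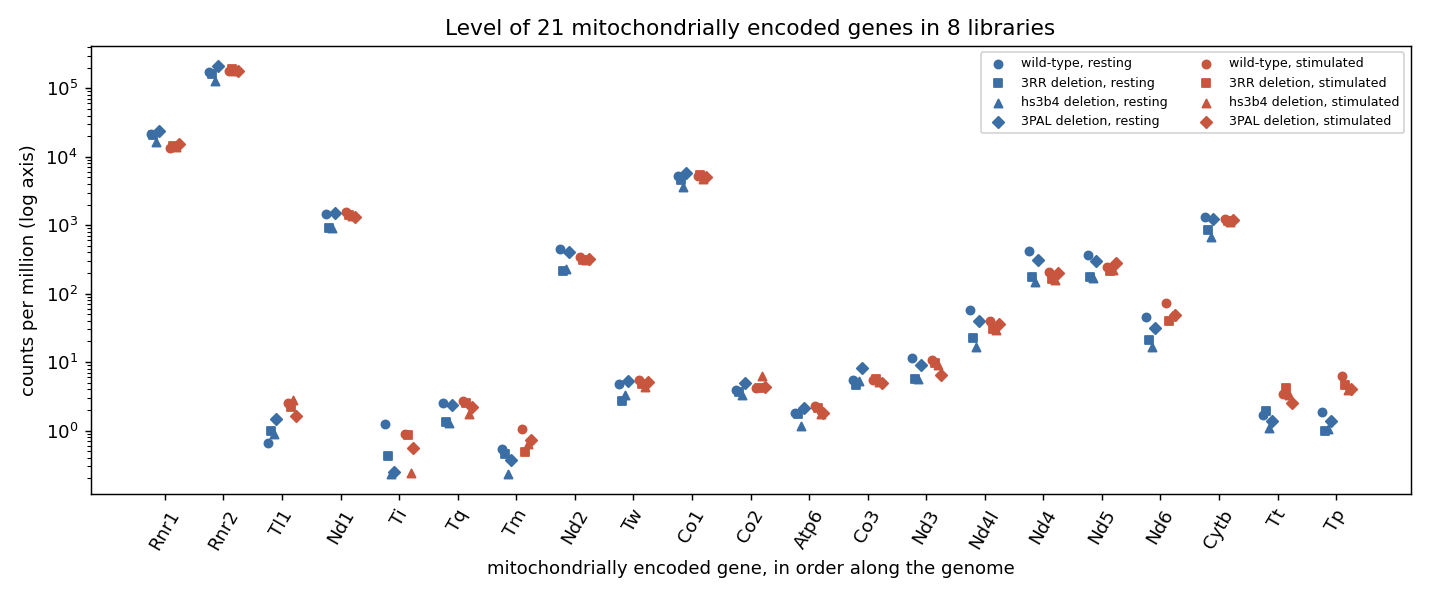
Level of the 21 tested mitochondrially encoded genes in each library, in CPM over the effective library size, on a log axis, with genes in genome order, resting libraries in blue and stimulated libraries in red, and 1 marker shape per genotype; counts are those of the gene itself, without chromosome 1 copies. mt-Rnr2 is between 129700 and 209600 CPM and the tRNAs are mostly under 10 CPM; the states separate in mt-Rnr1, mt-Tl1, mt-Tt and mt-Tp.

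The gene counts of some members were far below those of near-identical copies on chromosome 1. A stretch of that chromosome (chr1:24611535-24616197, minus strand) holds 7 annotated pseudogenes that copy parts of mt-Co1, mt-Co2, mt-Atp6, mt-Co3, mt-Nd3, mt-Nd4l and mt-Nd4. The copies of mt-Co2, mt-Atp6, mt-Co3, mt-Nd4l and mt-Nd4 had 0 differences over the bases compared, the copy of mt-Nd3 had 1 and the copy of mt-Co1 had 6. Of the counts of member and copy together, the member received 0.0817 to 0.122% for mt-Atp6, 0.152 to 0.247% for mt-Co2, 0.131 to 0.163% for mt-Co3 and 1.41 to 1.91% for mt-Nd3 over the 8 libraries. It received 66.8 to 71.4% for mt-Co1, at least 98.5% for mt-Nd4l and at least 99.7% for mt-Nd4. Thus mt-Atp6, a complex V subunit, had 30 to 64 counts while its copy Gm10925 had 31303 to 57176. The sources used here do not say how the counting placed reads that match more than 1 position, so the values per length and a repeat of the test are given below for member and copy summed, and all other values use the gene counts of the member alone. Reads of the nuclear copies themselves cannot be told apart from those of the members.

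The estimated counts made by kallisto, which shares reads among transcripts, went mostly to the mitochondrial genes. The member received 98.1 to 99.8% for mt-Atp6, 97.3 to 99.8% for mt-Co3, 85.5 to 90.5% for mt-Co1 and 45.1 to 96.5% for mt-Co2. The sum of member and copy was close by both routes for mt-Co3, with kallisto at 1.01 to 1.02 times the gene counts, and lower by kallisto for mt-Atp6, at 0.612 to 0.677 times. mt-Atp8, the other complex V subunit, overlaps the start of mt-Atp6 and had 1 to 5 gene counts in a library against 3379 to 6476 kallisto estimated counts. Its gene count therefore says little of its level, and it was not tested.

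**Figure D2:**
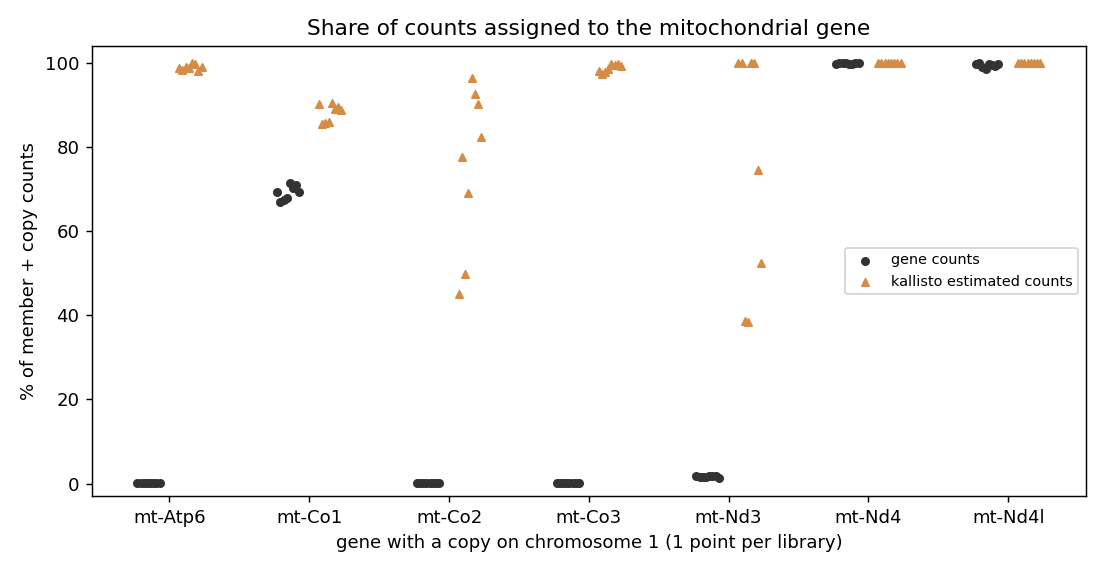
Share of the counts of a member and its chromosome 1 copy together that was assigned to the member (vertical axis, %), for 7 genes, 1 point per library; black circles are gene counts and orange triangles kallisto estimated counts. Gene counts leave mt-Atp6, mt-Co2, mt-Co3 and mt-Nd3 under 2%, and kallisto spreads mt-Co2 and mt-Nd3 widely between libraries.

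The split of mt-Nd3, a complex I subunit, differed between genotypes. In kallisto, the copy Gm28438 received at most 0.000344% of the estimated counts of the pair in the wild-type and 3'RR deletion libraries of both states. In the hs3b-4 deletion it received 61.4% in resting and 25.5% in stimulated cells, and in the 3'PAL deletion 61.5% and 47.6%. The estimated counts of the member and the copy were 3672 and 5838 in the hs3b-4 resting library, and 11446 and 0.01 in the wild-type resting library. All 4 libraries of these 2 deletions thus stood apart from the other 4. In the gene counts the member's share was 1.41 to 1.91% in every library. Member and copy differ at T3C (chrMT:9461), shown above, and the base carried by the reads of each library was not analysed here, so its part in the split was not tested.

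**Figure D3:**
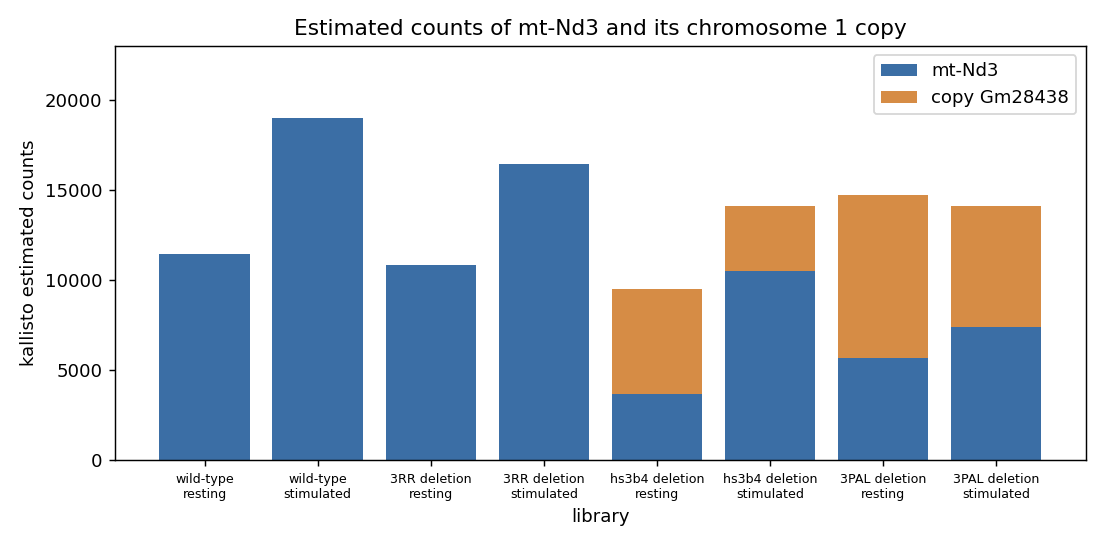
Kallisto estimated counts (vertical axis) of mt-Nd3 (blue) and its chromosome 1 copy Gm28438 (orange), stacked, in each of the 8 libraries. The copy is at or near 0 in the wild-type and 3'RR deletion libraries and takes 25.5 to 61.5% of the bar in the hs3b-4 and 3'PAL deletion libraries.

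Per length and with the copies added, the mRNAs of complex IV had the highest values. In TPM, a unit that scales transcripts for length and keeps no depth, with the copy added to the member, mt-Co1 (the catalytic subunit of cytochrome c oxidase) ranged from 5012 to 10300 in resting and 7411 to 8880 in stimulated libraries. mt-Co3 was at 4325 to 10110 and 6661 to 7646 TPM, so these neighbours overlapped. Their order depends on the copies: the copy of mt-Co1 is 492 bases long against 1545 for the gene, so that its reads weigh more per length, and without copies mt-Co3 was above mt-Co1 in all 8 libraries (4242 against 3418 TPM in the wild-type resting library). mt-Co2 followed at 3314 to 6448 and 5677 to 6385 TPM. Without copies mt-Co2 was below mt-Atp8 in the wild-type, hs3b-4 and 3'PAL deletion resting libraries, and above it in the others. In the wild-type resting library they were at 1489 and 3020 TPM. The complex III subunit mt-Cytb was at 887 to 1422 and 1286 to 1538 TPM. The lowest was mt-Nd5, a proton-pumping subunit of complex I, at 142 to 225 TPM in resting and 169 to 234 TPM in stimulated libraries, overlapping mt-Nd6 at 145 to 259 and 210 to 324 TPM. Within complex I, mt-Nd1 (1316 to 2253 and 1999 to 2453 TPM) and mt-Nd3 (2310 to 4190 and 3378 to 4737 TPM) lay above mt-Nd2, mt-Nd4l, mt-Nd4, mt-Nd5 and mt-Nd6 in every library.

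Stimulated cells were compared with resting cells over the 4 genotypes to ask how the mitochondrial transcripts differ between these states. Resting cells were fresh, and no library came from cells cultured without LPS. The parts of culture, LPS and the further gradient therefore cannot be told apart and were not tested. Stimulation stands here for all of them together. Of the 21 members tested, mt-Nd6 and the tRNAs mt-Tp, mt-Tt and mt-Tl1 rose, mt-Rnr1 fell, and 16 did not pass the test. The test was edgeR's quasi-likelihood test with genotype and state as terms, with Benjamini-Hochberg adjusted p under 0.05 over 13791 genes. Over all genes tested 34.9% rose and 35.9% fell, so 4 of 21 higher and 1 of 21 lower is a smaller share than the background in each direction. The states did not overlap in 4 of the 21 members, and the share of all genes without overlap is not given here. The median log2 fold change was 0.25 over the 21 members and -0.03 over all genes. Of the members that rose, mt-Nd6 and mt-Tp lie on the minus strand and mt-Tt and mt-Tl1 on the plus strand.

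The proline tRNA mt-Tp changed most. It was at 1.85 CPM in the wild-type, 0.986 in the 3'RR deletion, 1.05 in the hs3b-4 deletion and 1.36 in the 3'PAL deletion resting libraries. The stimulated libraries had 6.23, 4.61, 3.86 and 4.07 CPM in the same order. Every stimulated library was above every resting library, at a log2 fold change of 1.85 (SE 0.185, edgeR adjusted p = 0.0001, higher in 4 of 4 genotypes, 0.00087 at most over 12 alternatives). The counts behind it were 27 to 34 in resting and 98 to 177 in stimulated libraries.

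Its neighbour mt-Tt on the other strand was at 1.69, 1.90, 1.09 and 1.36 CPM in resting and 3.42, 4.17, 3.27 and 2.49 CPM in stimulated libraries, in the order wild-type, 3'RR, hs3b-4 and 3'PAL deletion. The states did not overlap, and the log2 fold change was 1.15 (SE 0.195, edgeR adjusted p = 0.0014, higher in 4 of 4, adjusted p from 0.00019 to 0.0078 over 12 alternatives). The leucine tRNA mt-Tl1 was at 0.652, 0.986, 0.898 and 1.49 CPM in resting and 2.54, 2.18, 2.84 and 1.64 CPM in stimulated libraries. The states did not overlap here either, but the 3'PAL deletion libraries were close, and the counts were 12 to 36 and 48 to 72. The log2 fold change of mt-Tl1 was 1.19 (SE 0.325, edgeR adjusted p = 0.013, higher in 4 of 4, adjusted p from 0.0027 to 0.05 over 12 alternatives), and without the hs3b-4 pair it was 1.07 with adjusted p = 0.05 and did not pass.

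The other 4 tested tRNAs, mt-Ti, mt-Tq, mt-Tm and mt-Tw (isoleucine, glutamine, methionine and tryptophan), had log2 fold changes of 0.33 to 0.82 that did not pass. mt-Tm came closest, at 0.82 (SE 0.324, edgeR adjusted p = 0.054, higher in 4 of 4 genotypes), and it passed without the 3'RR pair at 1.08 (adjusted p = 0.038). The ranges of all 4 overlapped between states. A mature tRNA is short and heavily modified and is captured poorly by libraries of this kind, and whether these counts come from mature tRNAs or from precursors was not tested. Where genes lie end to end or overlap, as mt-Ti and mt-Tq do, reads of neighbours can be counted to either.

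The complex I subunit mt-Nd6, the mRNA of the minus strand (chrMT:13552-14070), was at 45.5 CPM in the wild-type, 21.2 in the 3'RR deletion, 16.6 in the hs3b-4 deletion and 31.0 in the 3'PAL deletion resting libraries. The stimulated libraries had 71.8, 40.4, 46.5 and 48.2 CPM. The states overlapped, because the wild-type resting library was above the 3'RR deletion stimulated library, but each genotype was higher after stimulation. The log2 fold change was 0.92 (SE 0.149, edgeR adjusted p = 0.0011, higher in 4 of 4, adjusted p from 5.5e-07 to 0.051 over 13 alternatives). In the kallisto estimated counts it was 0.39 with adjusted p = 0.051 and did not pass. The gene counts of mt-Nd6 were 40.7 to 45.3% of its kallisto estimated counts in resting and 61.5 to 79.1% in stimulated libraries. The sources used here do not give the strand setting of either program, and without strand, reads of the opposite transcript across mt-Nd6 cannot be told apart from its own.

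Set against the 12 heavy-strand mRNAs, mt-Nd6 had 4.86 gene counts per 1000 of theirs in the wild-type, 3.03 in the 3'RR deletion, 2.85 in the hs3b-4 deletion and 3.24 in the 3'PAL deletion resting libraries. After stimulation it had 8.14, 4.61, 5.81 and 5.69. The log2 ratio rose by 0.80 on average (SD 0.176, n = 4, higher in 4 of 4, exact sign-flip p = 0.13, adjusted p = 0.25 over 8 values). By kallisto the mean was 0.13 (SD 0.256, higher in 3 of 4, exact sign-flip p = 0.375). With the copies added to the heavy-strand mRNAs the mean in gene counts was 0.88. The size of this shift thus depended on which deposited quantification was used.

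The rRNAs separated from each other. mt-Rnr1, the RNA of the small mitochondrial ribosomal subunit, was at 21280 CPM in the wild-type, 20440 in the 3'RR deletion, 16280 in the hs3b-4 deletion and 23520 in the 3'PAL deletion resting libraries. In stimulated libraries it was at 13280, 14300, 13950 and 15220 CPM, all below the resting ones. It fell by 0.51 on the log2 scale (SE 0.141, edgeR adjusted p = 0.014, lower in 4 of 4). Its adjusted p was 0.056 without the wild-type pair, 0.053 without the 3'RR pair and 0.057 without the wild-type resting library, so the call did not hold there, with log2 fold changes of -0.45, -0.51 and -0.46.

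mt-Rnr2, the RNA of the large subunit, ranged from 129700 to 209600 CPM in resting and 178200 to 192300 CPM in stimulated libraries. Its log2 fold change was 0.14 (SE 0.196, edgeR adjusted p = 0.54, higher in 3 of 4). Per 100 counts of mt-Rnr2 there were 12.5, 12.7, 12.6 and 11.2 counts of mt-Rnr1 in resting and 7.35, 7.44, 7.81 and 8.54 in stimulated libraries, in the order wild-type, 3'RR, hs3b-4 and 3'PAL deletion. The states did not overlap in this ratio, which compares neighbouring genes within a library and does not depend on scaling. Its log2 value fell by 0.65 (SD 0.178, n = 4, lower in 4 of 4, exact sign-flip p = 0.13, adjusted p = 0.25 over 8 values). The share of each rRNA removed by the depletion in each library is not known from these files.

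**Figure D4:**
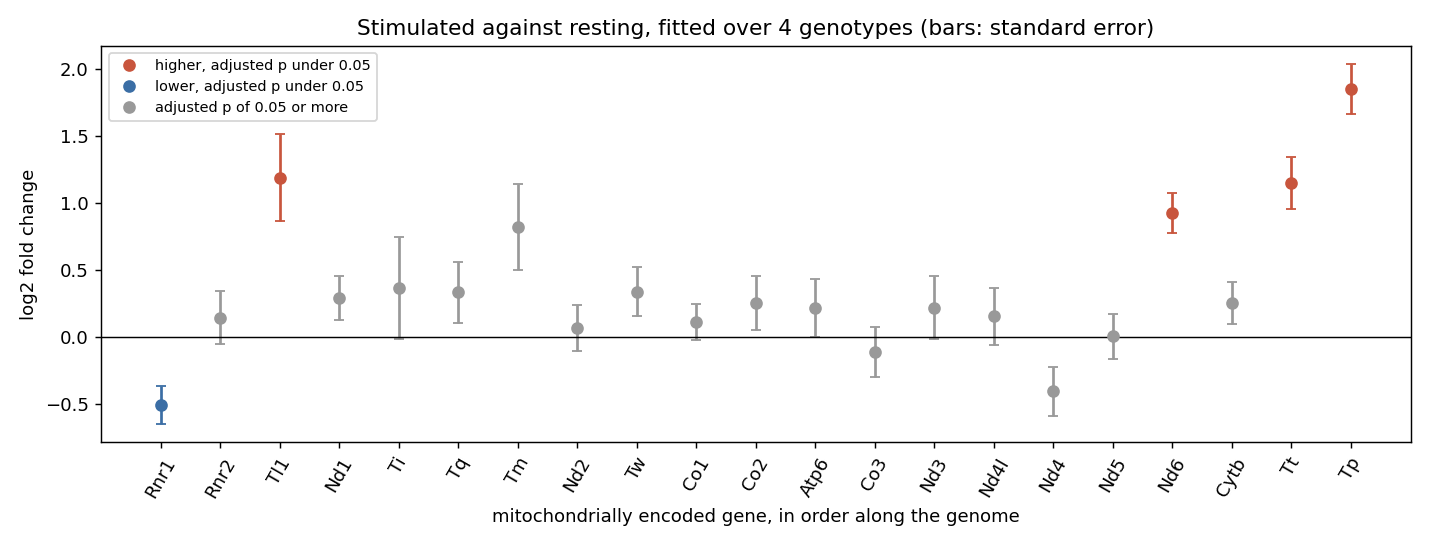
Log2 fold change of stimulated against resting libraries, fitted over 4 genotypes, for the 21 tested members in genome order; bars are standard errors, red marks members higher and blue members lower at an adjusted p under 0.05, grey the rest. The members that passed are mt-Rnr1 and mt-Tl1 near the start and mt-Nd6, mt-Tt and mt-Tp near the end, from -0.51 to 1.85, while the 11 tested heavy-strand mRNAs lie between -0.41 and 0.29.

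None of the 11 tested heavy-strand mRNAs passed the test, and 10 of the 12 protein-coding estimates, mt-Nd6 included, were above 0. mt-Nd4, a complex I subunit, had the lowest estimate at -0.41 (SE 0.181, edgeR adjusted p = 0.078). It was at 420 CPM in the wild-type, 176 in the 3'RR deletion, 148 in the hs3b-4 deletion and 309 in the 3'PAL deletion resting libraries. The stimulated libraries had 209, 164, 158 and 202 CPM and lay within the resting range. With DESeq2, mt-Nd4 passed at -0.42 (adjusted p = 0.042), as it did without the hs3b-4 pair at -0.53 (adjusted p = 0.042), and without the wild-type resting library the estimate was -0.21. In the kallisto estimated counts it was -0.06 (adjusted p = 0.78), and the kallisto sum of mt-Nd4 and its copy was 1.07 to 1.15 times the gene counts in resting and 1.23 to 1.37 times in stimulated libraries. mt-Nd1 had the highest heavy-strand estimate, 0.29 (SE 0.163, edgeR adjusted p = 0.15), and passed without the 3'PAL pair at 0.47 (adjusted p = 0.022).

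Summing each copied gene with its chromosome 1 copy left these calls as they were. The log2 fold changes were then 0.05 for mt-Co1, 0.23 for mt-Co2, 0.05 for mt-Atp6, -0.16 for mt-Co3 and 0.21 for mt-Nd3, with edgeR adjusted p from 0.15 to 0.81. mt-Co3 with its copy was at 3860, 3532, 3686 and 5460 CPM in resting libraries, where its own gene counts gave 4.61 to 8.14 CPM. With kallisto estimated counts of the member alone, mt-Co2 and mt-Nd3 passed (0.97 and 0.72, adjusted p = 0.0054 and 0.024). These are the genes whose kallisto split between member and copy moved most between libraries.

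The nuclear genes that work with these transcripts were set beside them, list by list. Each list count below is to be read against the 34.9% of all genes that rose and the 35.9% that fell. All 41 of 41 tested nuclear subunits of the respiratory complexes rose, with a median log2 fold change of 1.10 against -0.03 over all genes. Among them Atp5g1, the membrane ring subunit of complex V, rose from 22.9 to 34.0 CPM across resting libraries to 82.3 to 119 CPM across stimulated ones (log2 1.89, SE 0.118, edgeR adjusted p = 1.7e-05). Ndufv2, a core subunit of complex I, rose by 1.37 (SE 0.0753, adjusted p = 1.2e-05), Atp5o of complex V by 1.52 and Cox6b1 of complex IV by 1.39. By contrast, 1 of the 12 tested mitochondrially encoded mRNAs rose and their median was 0.18. The difference between these lists was not tested.

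Of 76 tested mitochondrial ribosomal protein genes 73 rose and 0 fell (median 1.06), in cells whose mt-Rnr1 fell and whose mt-Rnr2 did not pass. Mrpl18, of the large subunit, rose by 2.14 (SE 0.0988, edgeR adjusted p = 7e-06), and Mrps28 and Mrps27, of the small subunit, by 1.67 and 1.64. Of 20 translation factors 14 rose and 0 fell (median 0.39), led by the elongation factors Tufm, at 1.62, and Tsfm, at 1.52. Of 21 mitochondrial aminoacyl-tRNA synthetases, which charge the tRNAs, 14 rose and 1 fell (median 0.47). Gars and Kars, which also serve the cytosol, rose by 1.64 and 1.57, and the mitochondrial Rars2 by 1.06.

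Genes that process or stabilise mitochondrial RNA rose in 23 of 36 cases and fell in 3 (median 0.59). Rexo2, an exonuclease that degrades short RNAs in mitochondria, rose from 15.1 to 18.6 CPM to 71.7 to 97.3 CPM (log2 2.30, SE 0.0863, edgeR adjusted p = 4e-06). Slirp, a partner of Lrpprc in protecting mitochondrial mRNAs, rose by 1.73. Trnt1, which adds the CCA end to tRNAs, rose by 1.07 and the RNA granule protein Grsf1 by 0.81.

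Genes of mitochondrial transcription and DNA maintenance had 8 of 23 members higher, or near the share over all genes, and 5 lower (median 0.12). The falls with the lowest p were in nucleotide supply, with Tk2 at -2.53 (SE 0.155, edgeR adjusted p = 1.6e-05), Dguok at -0.96 and Rrm2b at -0.94. Tfb1m, which methylates the small rRNA mt-Rnr1, rose from 4.41 to 5.06 CPM to 8.06 to 9.89 CPM (log2 0.95, SE 0.127, adjusted p = 0.00042). Of 9 regulators of mitochondrial biogenesis 2 rose and 4 fell. The transcription factor Myc was at 113 to 237 CPM in resting and 31.0 to 45.5 CPM in stimulated libraries (log2 -2.16, SE 0.123, adjusted p = 1.3e-05), Esrra fell by 0.62 and Ppargc1b by 0.91, and Gabpa, which binds promoters of respiratory genes, rose by 0.47.

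Each deletion was compared with wild-type over both states to ask whether loss of the regulatory region goes with other mitochondrial transcript levels. No member passed in any of the 3 comparisons with edgeR. Over all genes 1.91% passed for the 3'RR deletion, 0.123% for the hs3b-4 deletion and 0.45% for the 3'PAL deletion. At an unadjusted p under 0.05 there were 6 of 21 members for the 3'RR deletion, 8 for the hs3b-4 deletion and 2 for the 3'PAL deletion, against 13.1%, 8.39% and 8.90% of all genes. DESeq2 called 1, 3 and 0 members, and over all 13791 genes it called 514, 176 and 241. Without the filter edgeR called 1, 2 and 0 members, and 657, 189 and 313 of all 25075 genes. The 3 comparisons share the wild-type libraries, so their values are set side by side and not counted as separate support.

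The member with the lowest p in the 3'RR and hs3b-4 comparisons was mt-Nd6. Its log2 fold change was -0.97 in the 3'RR deletion (SE 0.21, edgeR adjusted p = 0.085, from 0.0062 to 0.37 over 10 alternatives). It was -1.01 in the hs3b-4 deletion (SE 0.211, adjusted p = 0.22, from 0.0068 to 0.84) and -0.56 in the 3'PAL deletion (SE 0.208, adjusted p = 0.48, from 0.25 to 0.71). The wild-type library had the highest mt-Nd6 level in each state, at the values given above. DESeq2 called it in the 3'RR and hs3b-4 deletions, with adjusted p of 0.0062 and 0.0068, and edgeR called it in the 3'RR deletion without the hs3b-4 pair (-0.95, adjusted p = 0.032). Without the wild-type resting library the estimates were -0.79, -0.84 and -0.38, with adjusted p of 0.37, 0.84 and 0.71.

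In the hs3b-4 deletion the isoleucine tRNA mt-Ti had the next lowest p and the lowest estimate of any member, -2.15 (SE 0.561, edgeR adjusted p = 0.32), from 6 to 25 counts in a library. The estimates of mt-Nd4 and mt-Nd4l, complex I subunits read from a shared mRNA, were also low. mt-Nd4l was at 56.9 CPM in the wild-type, 22.1 in the 3'RR deletion, 16.4 in the hs3b-4 deletion and 39.96 in the 3'PAL deletion resting libraries. The stimulated libraries had 40.3, 30.7, 29.03 and 35.9 CPM, a narrower range in the same order of genotypes. The log2 fold changes of mt-Nd4l were -0.90 and -1.13 and those of mt-Nd4 -0.83 and -0.97 in the 3'RR and hs3b-4 deletions, with edgeR adjusted p of 0.22 to 0.33. DESeq2 called both in the hs3b-4 deletion (adjusted p = 0.042 for mt-Nd4l and 0.033 for mt-Nd4). Without the wild-type resting library the estimates were -0.44 and -0.68 for mt-Nd4l and -0.41 and -0.56 for mt-Nd4, with adjusted p of 0.66 to 0.95.

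Other members with an unadjusted p under 0.05 were mt-Nd2, mt-Nd5 and mt-Tp in the 3'RR deletion, mt-Tq, mt-Nd5, mt-Cytb and mt-Tp in the hs3b-4 deletion, and mt-Ti and mt-Nd6 in the 3'PAL deletion, all with estimates below 0. The rRNAs were close to wild-type: mt-Rnr1 was at 0.02, -0.15 and 0.17 and mt-Rnr2 at 0.00, -0.20 and 0.15 in the 3'RR, hs3b-4 and 3'PAL deletions. Their standard errors were 0.199 for mt-Rnr1 and 0.276 for mt-Rnr2, and edgeR adjusted p ran from 0.82 to 1. The median over the 21 members was -0.47, -0.55 and -0.09 against 0.00, 0.01 and -0.02 over all genes. No gene of the mitochondrial transcription list, and none of the other 6 nuclear lists above, was called in any of the 3 comparisons. Of the 7 erythroid markers 6, 1 and 5 were higher in the 3'RR, hs3b-4 and 3'PAL deletions than in wild-type, and of the 10 monocyte and macrophage markers 6, 0 and 0 were. Their part in the member values was not tested.

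Within a state a mutant and the wild-type were 1 library each, so the ratio of scaled counts is given with a 95% counting interval and no test. In resting cells the summed protein-coding members were at 0.746 of wild-type in the 3'RR deletion (0.741 to 0.751), 0.622 in the hs3b-4 deletion (0.618 to 0.626) and 1.02 in the 3'PAL deletion (1.02 to 1.03). In stimulated cells these ratios were 0.990, 0.906 and 0.957. They were closer to 1 than in resting cells for the 3'RR and hs3b-4 deletions, but not for the 3'PAL deletion. With the chromosome 1 copies summed they were 0.804, 0.707 and 1.14 in resting and 1.02, 0.942 and 0.994 in stimulated cells. The summed rRNAs were at 0.945, 0.760 and 1.22 in resting and 1.06, 0.992 and 0.997 in stimulated cells. The spread between libraries of the same kind is unknown, so differences of this size are a description of these libraries.

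In resting cells the ratios differed between genes of a library. In the 3'RR deletion, mt-Co1 was at 0.881 of wild-type, mt-Cytb at 0.645, mt-Nd1 at 0.614, mt-Nd2 at 0.486, mt-Nd5 at 0.484 and mt-Nd4 at 0.4196. In the hs3b-4 deletion the same genes were at 0.698, 0.512, 0.616, 0.523, 0.456 and 0.351, and in the 3'PAL deletion at 1.09, 0.923, 1.05, 0.907, 0.819 and 0.736. In each of the 3 resting comparisons, which share 1 wild-type library, mt-Nd4 was the lowest of these 6 genes and mt-Co1 the highest. Outside these 6, mt-Nd4l was lower than mt-Nd4 in each, at 0.389, 0.288 and 0.703 in the 3'RR, hs3b-4 and 3'PAL deletions. By its own gene counts, 99 to 197 in a resting library, mt-Co3 was at 0.857 (0.655 to 1.12), 0.994 (0.762 to 1.30) and 1.51 (1.18 to 1.95). In the 3'RR deletion the interval of mt-Co3 contains the mt-Co1 value, so their order is not settled there. The mt-Co3 ratio was above that of mt-Co1 in the hs3b-4 and 3'PAL deletions. Within stimulated cells the 6 genes lay between 0.753 and 1.14. The minus-strand mt-Nd6, not among the 6, was at 0.466, 0.365 and 0.681 in the 3'RR, hs3b-4 and 3'PAL deletions in resting cells. In stimulated cells mt-Nd6 was at 0.563, 0.648 and 0.671 in the same order. The median over the tested members was 0.614, 0.593 and 0.931 in resting and 0.914, 0.879 and 0.890 in stimulated cells, against 0.983 to 1.01 over all genes tested.

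**Figure D5:**
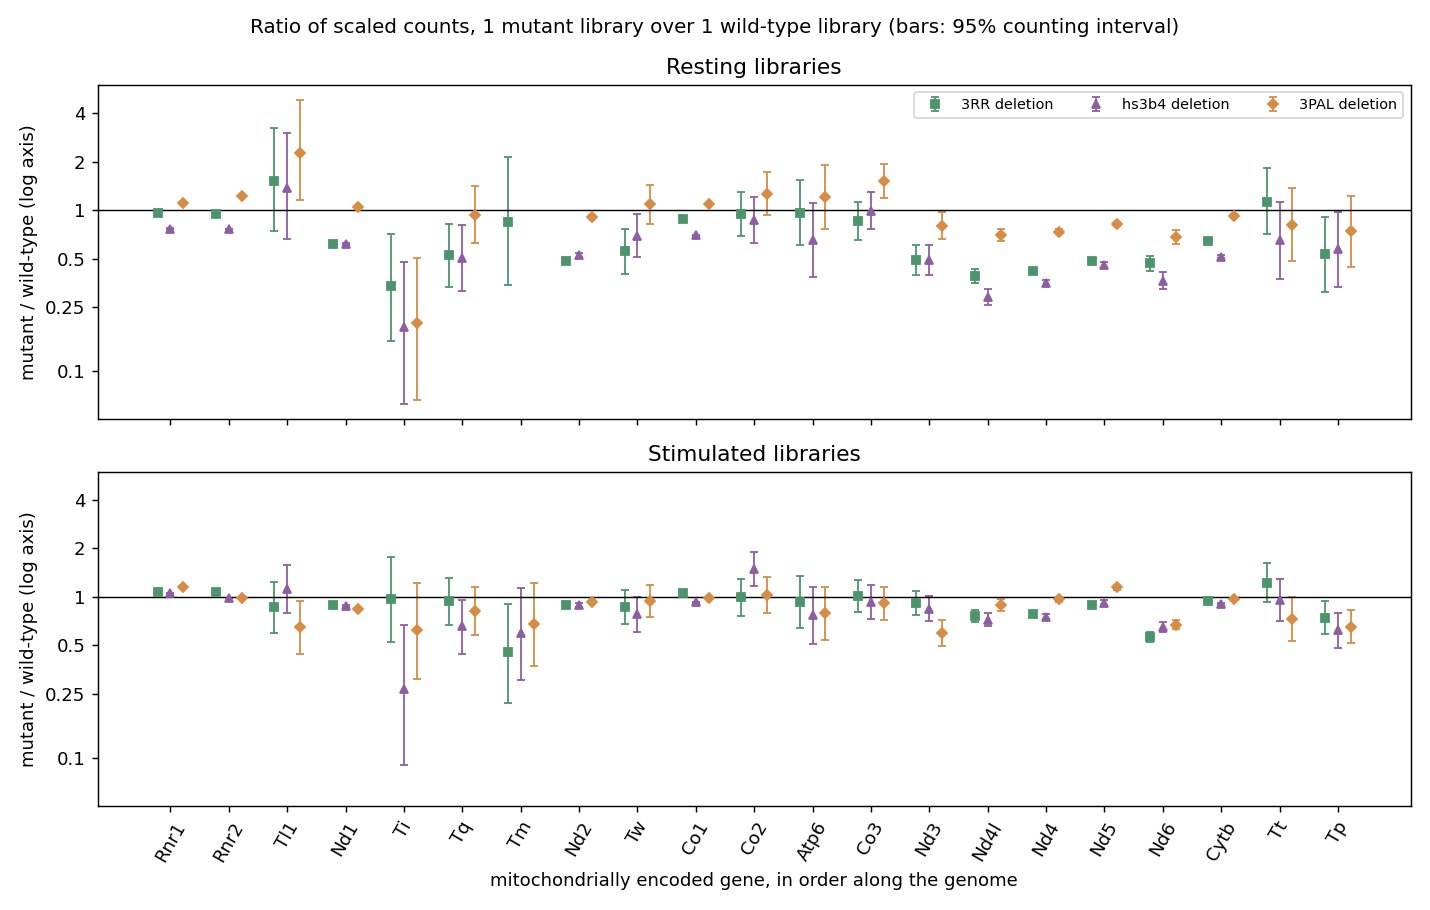
Ratio of scaled counts of 1 mutant library over the wild-type library of the same state (log axis) for the tested members in genome order; bars are exact 95% counting intervals, and a gene with under 20 counts in a pair of libraries is left out. In resting libraries the 3'RR and hs3b-4 deletions are at 0.4196 and 0.351 for mt-Nd4 and lowest, at 0.338 and 0.187, for the sparsely counted mt-Ti, while in stimulated libraries mt-Nd4 lies between 0.753 and 0.966; counts are without chromosome 1 copies.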

How the data were processed

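The gene counts are raw, deposited by the authors after alignment with STAR 2.4.0a to GRCm38 (mm10) and counting with featureCounts of Subread 1.4.6-p1, per the submitters' processing notes, which also name SAMtools and bedtools. The deposited estimated counts and TPM were made with kallisto 0.42.3, per the same notes; estimated counts were rounded and hold no rRNA or tRNA member. In the deposited TPM table some headers did not match their columns, which were assigned by content. Entries without a gene name (0.00621 to 0.0342% of counts) were left out.

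Counts were scaled by TMM and tested with edgeR 4.0.16 in R 4.3.3 (filterByExpr by state; a model of genotype plus state that leaves 3 degrees of freedom; biological variation of 15.8%; Benjamini-Hochberg over 13791 genes). This fit assumes 1 mutant effect in both states. With 1 library per group, genotypes serve as replicates of a state and p-values measure the spread between these libraries. The test was also run on simulated counts with 200 changed genes. These had the same variation for every gene and no genotype effects, unlike the data, so that run does not show how the test behaves here. Shares and ratios were tested by exact sign-flip over genotypes; intervals used SciPy 1.17.1. Copies were matched to the count table by coordinates.

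Named were mt-Rnr1, mt-Rnr2 and mt-Nd6, up to 4 called members of a class per comparison, the highest and lowest mRNA per length and from each list at most the 4 genes of lowest adjusted p; mt-Nd4, mt-Nd4l, mt-Nd1, the copied genes and others were chosen after their values were seen. Members and lists were chosen with earlier results of these data known. Alternatives were other scaling (RLE, library size, non-members), DESeq2 1.42.0, no filter, no genotype term, kallisto, leaving out a genotype and, added after seeing the data, summing members with 7 copies and leaving out the wild-type resting library.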

Additional observations from a re-analysis of the deposited data

Results flagged for a closer look

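In the stimulated libraries mt-Co2 stood apart in the hs3b-4 deletion, at 6.22 CPM against 4.17 to 4.31 CPM in the other 3 libraries. The gap to the nearest library was 0.933 of the whole range, above the critical value of 0.829 for 4 samples. Such a rule marks about 1 in 20 groups by chance, and 50 groups were examined. These are counts of the member alone, which held 0.152 to 0.247% of the counts of mt-Co2 and its chromosome 1 copy.

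The summed rRNAs were below wild-type in resting cells of the 3'RR deletion (ratio 0.945) and above it in stimulated cells (1.06). In the 3'PAL deletion the rRNAs were at 1.22 in resting and 0.997 in stimulated cells, and the summed protein-coding members at 1.02 and 0.957. These were marked because the counting intervals lie on opposite sides of 1 in both states. By library size alone the rRNA ratios of the 3'PAL deletion were 1.11 and 1.04 and its protein-coding ratios 0.937 and 0.999, so the opposite directions were not seen under that scaling. With 1 library per group the difference between states was not tested.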

How the results depend on the processing

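The count of members called on stimulation was 4 to 6 over 12 alternatives on gene counts (5 without genotype as a block, that is, with no replicate block) and 2 of 13 with kallisto estimated counts, which hold fewer members. Over all genes 9761 of 13791 were called in the main fit, 8769 to 10453 in these alternatives on gene counts and 9753 of 14064 with kallisto. Members called in the 3'RR and hs3b-4 comparisons were 1 and 3 with DESeq2, which called 514 and 176 of all 13791 genes. With no filter on low counts they were 1 and 2, beside 657 and 189 of all 25075 genes. Leaving out a genotype gave 0 to 1 for the 3'RR deletion, beside 250 to 280 of all genes tested. The mean difference of the protein-coding share was 0.0481 points of gene counts (0.0026 without the hs3b-4 pair) and 0.558 points of TPM, and that of the mt-Nd6 log2 ratio was 0.80 and, with kallisto, 0.13; the cause was not tested. The labels carry no replicate numbers, and genotype was the only block.

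For protein-coding members, the ratios to wild-type in resting 3'RR, hs3b-4 and 3'PAL deletion libraries were 0.737, 0.637 and 0.937 by library size alone, 0.833, 0.691 and 1.14 with kallisto, and 0.804, 0.707 and 1.14 with the copies summed. In stimulated libraries they were 0.954 and 0.999 (3'RR and 3'PAL) by library size, 0.898 (hs3b-4) scaled over non-members, 0.877 and 0.939 (hs3b-4 and 3'PAL) with kallisto, and 1.02, 0.942 and 0.994 with the copies. The 3'PAL resting ratio by library size and the 3'RR stimulated ratio with copies thus changed side of 1, as did the 3'PAL stimulated rRNA ratio by library size (1.04). Of the fold changes of single members under an alternative, 453 kept their call, 15 passed in addition and 5 no longer passed, with no change of sign among called values. Depth limits the tRNAs, with as few as 6 counts in a library.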
